A study of Mus musculus with 8 samples.

Results

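Adipokines are proteins that fat cells release into the blood or into their surroundings. Some are hormones that report on fat stores or adjust insulin action in other organs, and others are enzymes, carriers or modulators of local signalling. White fat is their main source in the mouse, and leptin is usually made in smaller amounts by brown fat, whose cells burn fuel to make heat. The 10 genes described here encode leptin (Lep), adiponectin (Adipoq), resistin (Retn), adipsin (Cfd), chemerin (Rarres2), the NAD salvage enzyme also called visfatin (Nampt), retinol-binding protein 4 (Rbp4), angiotensinogen (Agt), a secreted Wnt inhibitor (Sfrp5) and apelin (Apln). They were chosen by name, with earlier results of these data known, as 10 of the 22869 genes of the deposited table.

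The levels came from RNA-seq of polyadenylated RNA of inguinal white fat, the subcutaneous depot of the groin, taken after removal of its lymph nodes. There were 4 wild-type libraries and 4 Fabp4-Ebf2 libraries, all from mice of mixed background, about 6 weeks old, on normal chow at room temperature. Fabp4-Ebf2 animals carry a transgene for Ebf2, which encodes a transcription factor of brown and beige adipocytes. It is named for Fabp4, whose regulatory sequence is active in adipocytes and also in some macrophages and endothelial cells. The labels give neither the number of transgenic lines nor whether each library is a separate animal, and the p-values therefore reflect only how these libraries spread, which may be technical.

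Libraries held 16894205 to 24653335 reads counted over 1 transcript per gene, and all 10 adipokine genes passed the filter on low counts. Ebf2 itself was at 14.9 to 37.0 CPM (reads scaled to library size and composition) in wild type and 231 to 575 CPM with Fabp4-Ebf2, and the reads do not separate transgene from endogenous gene. Summed over 20 adipocyte markers such as Fabp4, Plin1 and Cidec, the level was 32130 to 48223 CPM in wild-type fat and 30318 to 47508 CPM with Fabp4-Ebf2, with 0 of 20 passing the test. Fabp4 (means 11305 and 9952 CPM) and Lpl (6185 and 5175 CPM) were the largest parts of this sum. Of the 20 markers 10 had lower means, and log2 fold changes ran from -0.62 for Cidec to 0.84 for Gpd1. Skeletal muscle markers were present at 533 to 1523 CPM summed in wild type and 71.6 to 496 CPM with Fabp4-Ebf2, highest in replicate 1 of the former and replicate 2 of the latter, and none of the 20 was at 0 throughout. All 19 tested muscle markers had lower means with Fabp4-Ebf2, at a median log2 fold change of -2.08. For 10 of the 19 the groups did not overlap on the lower side, against 4.07% of all tested genes. Tcap and Casq1 passed the test downward among the 19 tested, each in 2 or fewer of 8 fits that left out 1 library. The part of this muscle difference in the results below was not tested. In whole tissue, fewer cells of a type and less RNA per cell cannot be told apart.

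Of the 10 genes, 1 fell and 0 rose in Fabp4-Ebf2 fat past the threshold of an adjusted p under 0.05 (quasi-likelihood fit in edgeR, Benjamini-Hochberg over 15002 genes). Over all tested genes the same threshold was passed downward by 0.620%, upward by 2.80% and in either direction by 3.42%. The gene that fell was Retn. Cfd and Lep had larger estimated differences without passing. The median log2 fold change of the 10 genes was -0.21, against -0.01 over all genes tested, with 6 means lower and 4 higher, where 51.6% and 48.4% of all tested genes were. At an unadjusted p under 0.05 there were 5 of the 10 genes, Retn, Cfd, Lep, Nampt and Adipoq, against 17.5% of all tested genes. The groups did not overlap for 3 genes, Retn and Cfd on the lower side and Nampt on the higher, where the background is 4.07% of tested genes lower, 7.35% higher and 11.4% in all. Because the genes were chosen with earlier results of these data known, these shares do not measure an excess over the background.

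**Figure D1:**
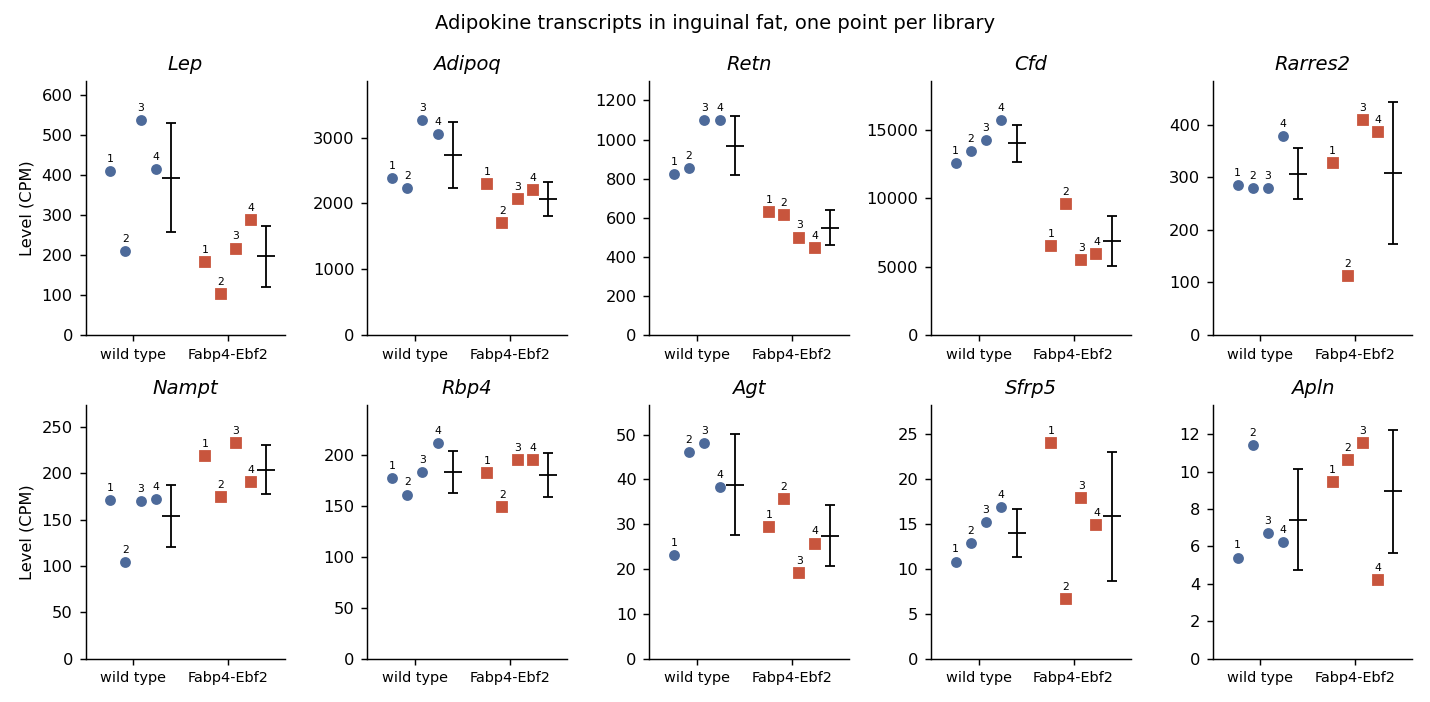
Level of each adipokine transcript in CPM on a linear axis from 0, one panel per gene; circles are wild-type and squares Fabp4-Ebf2 libraries, numbered by replicate, and the bar beside each group is its mean ± SD (n = 4). Retn, Cfd and Nampt are the panels in which the groups do not overlap, and replicate 2 of Fabp4-Ebf2 is far below the rest of its group for Rarres2 and Sfrp5.

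As a share of the reads so counted in each library, those of the 10 genes together made up 1.66, 1.86, 2.01 and 2.10% in wild type and 1.01, 1.28, 0.859 and 0.963% in Fabp4-Ebf2. This sum is mostly Cfd, which ranked 1 to 4 among all genes by reads in the wild-type libraries and 3 to 6 in the Fabp4-Ebf2 libraries. Per kilobase of transcript, the wild-type means descended from Cfd at 15194 ± 1456 (SD, n = 4) reads scaled per kilobase and library size (RPKM) through Adipoq at 2118 ± 389 and Retn at 1109 ± 172 to Rarres2 at 385 ± 61.5 RPKM. Below these came Rbp4 at 158 ± 18.1, Lep at 120 ± 41.5, Nampt at 34.1 ± 7.34, Agt at 20.6 ± 5.96, Sfrp5 at 7.34 ± 1.42 and Apln at 2.36 ± 0.854 RPKM. Among neighbours in this order, the wild-type ranges overlapped for Rbp4 with Lep and for Nampt with Agt. The means of Fabp4-Ebf2 fat came in the same order. There the neighbours with overlapping ranges were Retn with Rarres2, Rarres2 with Rbp4, Lep with Nampt, Agt with Sfrp5, and Sfrp5 with Apln.

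Among the hormones, Retn encodes resistin, a small cysteine-rich protein that opposes insulin action in mice and that adipocytes make in this species, whereas in humans macrophages are the main source. Retn was at 825, 854, 1101 and 1098 CPM in wild-type replicates 1 to 4 and at 631, 616, 499 and 447 CPM with Fabp4-Ebf2. Every Fabp4-Ebf2 library lay below every wild-type library. The mean went from 969 ± 151 CPM to 548 ± 89.8 CPM (n = 4 each). Retn fell by 0.82 in log2 units (standard error 0.16, 1.77-fold lower, adjusted p = 0.0276 by edgeR). A two-sided exact permutation test on log2 CPM gave p = 0.0286, which is the lowest value possible with 70 arrangements. The call was lost on omission of replicate 3 or 4 of wild type, or of replicate 1, 3 or 4 of Fabp4-Ebf2, at edgeR adjusted p of 0.0569 to 0.0898 and log2 fold changes of -0.90 to -0.73. Over all genes those fits called 28, 22, 25, 40 and 37 lower, in the same order, against 93 with all libraries. The call of Retn was also lost when libraries were scaled to equal adipocyte markers (log2 fold change -0.86, adjusted p = 0.0939 by edgeR, 0.173% of genes lower). The authors' deposited table gives Retn a log2 fold change of -0.80 and an FDR of 6.19e-05. Its pair of listed RefSeq transcripts had 15705 and 14787 reads in wild-type replicate 1, and since both can hold the same reads they are not separate measurements.

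Lep encodes leptin, which signals the size of the fat stores to the hypothalamus. Its levels were 409, 210, 537 and 414 CPM in wild-type fat and 182, 103, 216 and 286 CPM with Fabp4-Ebf2. The groups overlapped through wild-type replicate 2, which lay below Fabp4-Ebf2 replicates 3 and 4. Leptin's mean was 393 ± 135 CPM against 197 ± 75.9 CPM, a log2 fold change of -1.0 (standard error 0.33, adjusted p = 0.154 by edgeR; two-sided exact permutation p = 0.0857). It passed in the authors' deposited table (FDR 0.00180) and by DESeq2 (adjusted p = 0.0303), where 1.71% and 2.57% of the tested genes were called lower. Leaving out single libraries moved its log2 fold change between -1.23, on omitting replicate 4 of Fabp4-Ebf2, and -0.79, on omitting its replicate 2.

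Adipoq encodes adiponectin, an abundant hormone that raises insulin sensitivity and circulates as multimers. It was at 2382, 2240, 3269 and 3057 CPM in wild-type fat and 2296, 1698, 2073 and 2199 CPM with Fabp4-Ebf2. Wild-type replicate 2 was just under Fabp4-Ebf2 replicate 1, and the other wild-type libraries were above all of Fabp4-Ebf2. The log2 fold change was -0.41 (SE 0.18, 95% interval from -0.81 to just under 0 before adjustment), which did not pass (edgeR adjusted p = 0.283; two-sided exact permutation p = 0.0571).

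Set against Adipoq within each library, a ratio that does not depend on scaling, leptin gave 17.2, 9.39, 16.4 and 13.6 Lep reads per 100 Adipoq reads in wild type. The same ratio was 7.93, 6.07, 10.4 and 13 in Fabp4-Ebf2, and the groups overlapped. Resistin gave 34.6, 38.1, 33.7 and 35.9 Retn reads per 100 Adipoq reads in wild type, a narrow range, and 27.5, 36.3, 24.1 and 20.3 in Fabp4-Ebf2. Here replicate 2 of Fabp4-Ebf2 lay within the wild-type range and the other 3 below it. These ratios were chosen after the values were seen and were not tested.

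The protease gene of the group is Cfd, whose product adipsin, also called complement factor D, cleaves factor B and so starts the alternative complement pathway. Cfd was at 12559, 13481, 14266 and 15729 CPM in wild-type fat and at 6473, 9564, 5461 and 5958 CPM with Fabp4-Ebf2. The groups were separate, and replicate 2 was the highest of Fabp4-Ebf2. Mean levels were 14009 ± 1342 and 6864 ± 1847 CPM (n = 4 each), a log2 fold change of -1.03 (standard error 0.24, adjusted p = 0.0516 by edgeR), just outside the threshold, with a two-sided exact permutation p of 0.0286, the smallest possible. Without Fabp4-Ebf2 replicate 2 the log2 fold change was -1.24 and Cfd passed (edgeR adjusted p = 0.0116), and without any other single library it did not (up to 0.163). Over all genes 256 were called lower without that replicate and 22 to 181 without another single library, against 93 with all libraries. The authors' deposited table gives Cfd a log2 fold change of -0.99 with an FDR of 1.24e-06. By limma-voom its adjusted p was 0.0319, with 0.547% of genes called lower by that method. The exact test of edgeR gave an adjusted p of 1.96e-05, with 1.84% called lower. Relative to Adipoq there were 527, 602, 436 and 515 Cfd reads per 100 Adipoq reads in wild type and 282, 563, 263 and 271 in Fabp4-Ebf2. Replicate 2 of Fabp4-Ebf2 was again inside the wild-type range.

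**Figure D2:**
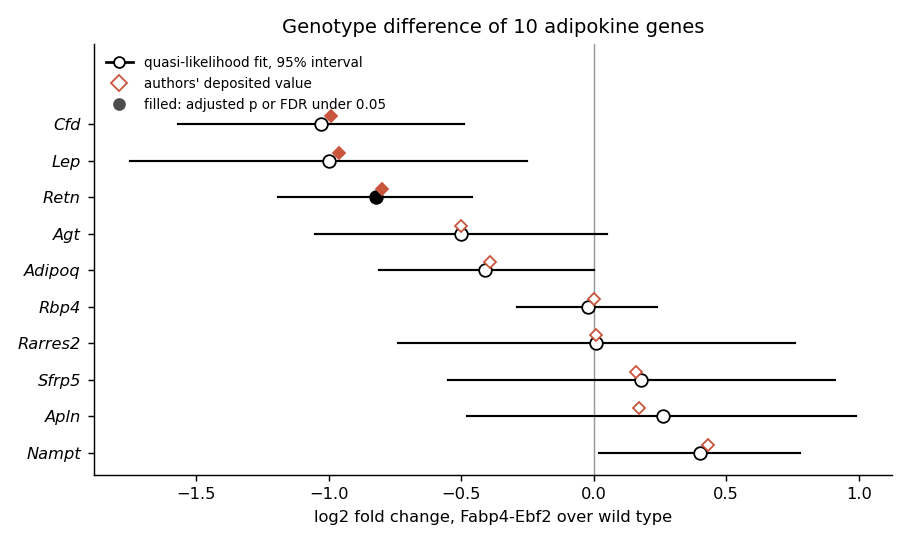
Log2 fold change of Fabp4-Ebf2 over wild type for each gene; circles with lines are the quasi-likelihood estimates with 95% intervals before adjustment, diamonds the authors' deposited values, and filled symbols have an adjusted p or FDR under 0.05. Retn is the one filled circle, whereas Cfd, Lep and Retn are filled diamonds at nearly the same positions, from -0.99 to -0.80.

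Nampt, which recycles nicotinamide into NAD inside cells and is also found outside them, was the one gene with all Fabp4-Ebf2 libraries above wild type. It was at 171, 104, 170 and 172 CPM in wild-type fat and at 218, 174, 232 and 191 CPM with Fabp4-Ebf2. The groups nearly touched without overlapping, at 172 and 174 CPM, and wild-type replicate 2 stood apart at the bottom. The mean was 154 ± 33.3 CPM against 204 ± 26.1 CPM, a log2 fold change of 0.40 (SE 0.17), which did not pass (edgeR adjusted p = 0.259; two-sided exact permutation p = 0.0286). Per 100 Adipoq reads there were 7.18, 4.66, 5.21 and 5.61 Nampt reads in wild type and 9.49, 10.3, 11.2 and 8.69 in Fabp4-Ebf2, without overlap. Adipoq itself had a log2 fold change of -0.41, which widens the gap in this ratio. The ratio is therefore no separate measurement, and it was not tested.

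The carrier and prohormone genes Rbp4, Rarres2 and Agt did not pass the test. Rbp4, whose protein carries retinol in blood, had 177, 161, 183 and 211 CPM in wild-type fat and 182, 149, 195 and 195 CPM with Fabp4-Ebf2. Its log2 fold change was -0.02 (SE 0.12, 95% interval -0.29 to 0.24 before adjustment, edgeR adjusted p = 0.935), and the sign turned on omitting replicate 4 of wild type or replicate 2 of Fabp4-Ebf2. Of the 10 genes it had the smallest standard error.

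Rarres2 encodes chemerin, a secreted precursor that proteases turn into a chemoattractant. Its wild-type levels were 286, 280, 280 and 379 CPM, and Fabp4-Ebf2 had 327, 112, 409 and 385 CPM. Replicate 2 of Fabp4-Ebf2 was below all other libraries, and the remaining 3 were above wild-type replicates 1 to 3. With it the log2 fold change was 0.01 (standard error 0.33, adjusted p = 0.992 by edgeR), and without it 0.28 (edgeR adjusted p = 0.289).

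Agt encodes angiotensinogen, the precursor from which renin and converting enzyme release the vasoactive angiotensins. It was at 23.2, 46.0, 48.0 and 38.2 CPM in wild-type fat and at 29.3, 35.7, 19.2 and 25.7 CPM with Fabp4-Ebf2. Wild-type replicate 1 lay inside the Fabp4-Ebf2 range and the other 3 above it. The log2 fold change was -0.50 (standard error 0.24, adjusted p = 0.324 by edgeR). Without wild-type replicate 1, the library with most muscle transcripts, and Fabp4-Ebf2 replicate 2, that with least Ebf2 of its group, it was -0.84 and passed (edgeR adjusted p = 0.0383). That fit called 164 genes lower over all genes, against 93 with all libraries. The omission was chosen after seeing the data.

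The 2 genes of lowest level act on local signalling. Sfrp5 encodes a secreted protein that binds Wnt5a and limits its action on fat cells, and it was at 10.8, 12.8, 15.2 and 16.9 CPM in wild type. In Fabp4-Ebf2 it was at 23.9, 6.67, 17.9 and 14.8 CPM, so that replicates 1 and 2 held the highest and lowest of all 8 values. Its log2 fold change was 0.18 (standard error 0.32, adjusted p = 0.796 by edgeR), and -0.09 without Fabp4-Ebf2 replicate 1.

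Apln encodes the precursor of apelin, a peptide that acts on vessels and heart and that endothelial cells also make. It was at 5.41, 11.4, 6.70 and 6.24 CPM in wild-type fat and 9.45, 10.6, 11.5 and 4.21 CPM with Fabp4-Ebf2. These are 103 to 294 reads per library. The groups overlapped fully, with a log2 fold change of 0.26 (SE 0.33, 95% interval -0.48 to 0.99 before adjustment, edgeR adjusted p = 0.711). It was 0.54 when wild-type replicate 2 was left out and 0.49 when Fabp4-Ebf2 replicate 4 was, neither past the test.

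Within each genotype, Lep, Adipoq, Rarres2, Nampt and Rbp4 were all lowest in replicate 2, while Agt and Apln were above their group means there. Replicate 2 of Fabp4-Ebf2 was the lowest of its group for 6 genes (Lep, Adipoq, Rarres2, Nampt, Rbp4 and Sfrp5) and the highest for 2 (Cfd and Agt). Relative to the group mean of log2 CPM it was at -1.30 for Rarres2, -1.10 for Sfrp5 and -0.84 for Lep, but at 0.51 for Cfd. This library had the least Ebf2 of its group, at 231 CPM, and the highest summed muscle markers of its group. Wild-type replicate 2 likewise had the least Ebf2 of its group, at 14.9 CPM. The part of either in these deviations was not tested. In wild type, replicate 2 was lowest for 5 genes (Lep, Adipoq, Rarres2, Nampt and Rbp4) and replicate 1 for the other 5, while replicates 3 and 4 were lowest for none. Deviations of Adipoq and Rbp4 stayed between -0.27 and 0.27 in all libraries, whereas those of Apln ran from -0.99 to 0.68.

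**Figure D3:**
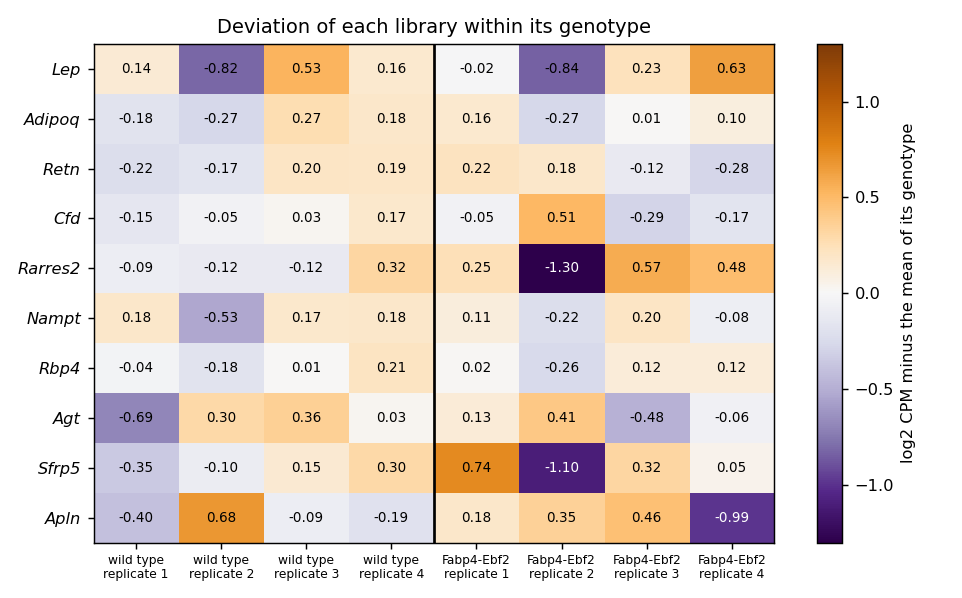
Log2 CPM of each gene in each library minus the mean of its genotype; rows are genes, columns libraries, orange is above and purple below the mean, and the black line parts the genotypes. In the column of Fabp4-Ebf2 replicate 2 the values run from -1.30 for Rarres2 to 0.51 for Cfd.

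The sequences just before the transcription starts of the 3 genes with the lowest log2 fold changes and of Nampt are shown to let the promoters of lower and higher genes be compared. They are the 250 bases before the start from RefSeq on GRCm38.p6, a later build than the mm9 that the submitters' processing notes name, and 9 of the 10 genes matched an entry. Each reads 5′ to 3′ along the gene in lower case, with a motif match in capitals.
Lep, chr6:29059971-29060220, plus strand: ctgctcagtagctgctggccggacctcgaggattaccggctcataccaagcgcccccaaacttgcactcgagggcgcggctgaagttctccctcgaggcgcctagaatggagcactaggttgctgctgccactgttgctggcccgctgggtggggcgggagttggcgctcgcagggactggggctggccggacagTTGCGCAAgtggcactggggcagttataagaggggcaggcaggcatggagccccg
Retn, chr8:3655520-3655769, plus strand: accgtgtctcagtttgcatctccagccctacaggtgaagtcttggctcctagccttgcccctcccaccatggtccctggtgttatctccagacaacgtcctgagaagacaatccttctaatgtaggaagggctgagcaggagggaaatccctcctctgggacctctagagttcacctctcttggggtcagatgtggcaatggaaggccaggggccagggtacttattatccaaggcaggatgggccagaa
Cfd, chr10:79890603-79890852, plus strand: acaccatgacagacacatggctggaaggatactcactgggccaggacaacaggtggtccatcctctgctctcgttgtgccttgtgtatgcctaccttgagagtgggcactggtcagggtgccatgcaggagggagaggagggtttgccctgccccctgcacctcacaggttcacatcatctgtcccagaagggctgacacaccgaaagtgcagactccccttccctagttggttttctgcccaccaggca
Nampt, chr12:32820085-32820334, plus strand: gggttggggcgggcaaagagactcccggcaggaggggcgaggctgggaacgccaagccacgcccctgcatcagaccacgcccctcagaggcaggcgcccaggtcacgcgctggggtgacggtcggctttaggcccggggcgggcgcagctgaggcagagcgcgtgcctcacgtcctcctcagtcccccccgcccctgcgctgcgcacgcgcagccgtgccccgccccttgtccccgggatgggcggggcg

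The windows of Retn and Cfd hold 2 CpG dinucleotides each, at 54.8% and 57.6% G and C, whereas that of Nampt holds 27 at 75.6% and that of Lep 16 at 65.6%. The median over all windows is 6 CpG and 52.0%. On both strands 3 motifs were searched, the EBF palindrome (TCCC, any 2 bases, GGGA), the C/EBP core TTGCNNAA and the TATA box TATAAA, which are found in 0.779%, 9.56% and 12.4% of the 32851 windows of this length. The C/EBP core, bound by transcription factors that drive adipocyte differentiation, begins 55 bases before the start of Lep. Among the genes not printed, Agt has a TATA box 30 bases before its start, and the second of the starts of Rbp4 has a C/EBP core at 128 and a TATA box at 28 bases. The EBF palindrome was in none of the windows of the 9 genes, which says only that these letters are absent there.

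Levels most like those of the 4 genes with the smallest p were looked for among the 14135 tested genes of at least 1 CPM, by the root mean square difference of mean-centred log2 levels over the 8 libraries. Centring over all 8 libraries keeps the genotype difference in each profile. The nearest genes were therefore picked partly for sharing that difference, and their tests below are no separate support. Nearest to Retn were the sugar transporter gene Slc2a12 (difference 0.136) and Shisa2 (0.142). For Cfd the nearest were Chrdl1, which encodes a secreted BMP antagonist, at 0.211, and Retn itself at 0.219. Chrdl1 fell from 103 ± 20.1 to 48.7 ± 10.4 CPM (n = 4 each, edgeR adjusted p = 0.0170), a call lost on omitting replicate 3 or 4 of wild type, or replicate 1 of Fabp4-Ebf2 (adjusted p up to 0.0623 by edgeR). Slc2a12 fell by 0.86 in log2 units (standard error 0.16, adjusted p = 0.0246 by edgeR) and passed without Fabp4-Ebf2 replicate 2 or wild-type replicate 2 only among the single omissions (up to 0.0839). Lep was nearest to Adcy5, an adenylyl cyclase gene, at 0.279, and to Amotl2 at 0.286, and Nampt to Sec31b at 0.0595 and Myst4 at 0.0597. Of these genes Shisa2, Adcy5, Amotl2, Sec31b and Myst4 did not pass the test.

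Receptors and binding partners of these proteins were measured in the same libraries, and 0 of 12 tested passed in either direction (median log2 fold change -0.13). The leptin receptor gene Lepr had 26.5 ± 8.44 CPM in wild-type fat and 18.7 ± 2.11 CPM with Fabp4-Ebf2 (log2 fold change -0.50, standard error 0.23, adjusted p = 0.302 by edgeR). The adiponectin receptor genes Adipor1 and Adipor2 had log2 fold changes of 0.09 and 0.05, and the apelin receptor gene Aplnr had -0.30. For chemerin, the signalling receptor gene Cmklr1 had -0.17, while Ccrl2, which encodes a receptor that binds chemerin without signalling, had 4.44 ± 0.886 CPM against 8.52 ± 2.50 CPM (log2 fold change 0.93, standard error 0.24, adjusted p = 0.0725 by edgeR).

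Of the resistin-like paralogs, 0 of 2 tested passed, and Retnlb had no read in any library. Retnla, which alternatively activated macrophages express, was at 184 ± 53.6 CPM in wild-type fat and 119 ± 23.2 CPM with Fabp4-Ebf2 (log2 fold change -0.63, standard error 0.23, adjusted p = 0.185 by edgeR). Retnlg, a gene of neutrophils and other myeloid cells, ranged from 0.892 to 12.1 CPM in wild-type fat and from 0.331 to 0.713 CPM with Fabp4-Ebf2. The groups did not overlap for Retnlg (log2 fold change -3.52, standard error 0.84, adjusted p = 0.0550 by edgeR). The authors' deposited table gives FDRs of 5.50e-07 for Retnlg and 0.0273 for Retnla. The summed macrophage markers overlapped between genotypes, at 1742 to 3279 CPM in wild-type fat and 1647 to 2844 CPM with Fabp4-Ebf2. Lyz2 was the largest part of this sum, at means of 1312 and 1085 CPM. Of the 12 markers 0 passed and 6 had lower means. Emr1 had a log2 fold change of 1.03 (standard error 0.45, adjusted p = 0.272 by edgeR), with 282 CPM in Fabp4-Ebf2 replicate 4. Among 8 genes that fold and export adiponectin, such as Erp44 (log2 fold change 0.01) and Gstk1 (-0.28, standard error 0.10, adjusted p = 0.156 by edgeR), 0 passed. Among 12 C1q and TNF related genes, relatives of adiponectin, 0 passed as well, with a median of 0.07.

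Around factor D, 0 of 13 tested complement genes passed and their median log2 fold change was 0.00. C3, the central component, was at 2751 and 2906 CPM (log2 fold change 0.08). Cfb, the substrate of factor D, was at 494 ± 16.8 CPM in wild-type fat and 657 ± 135 CPM with Fabp4-Ebf2 (log2 fold change 0.41, standard error 0.15, adjusted p = 0.200 by edgeR). The values of Cfb and Cfd thus pointed in opposite directions. For C3ar1, which encodes a receptor for a fragment of C3 and is expressed by macrophages, the log2 fold change was 0.95 (standard error 0.42, adjusted p = 0.279 by edgeR).

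Around angiotensinogen, 0 of 11 tested genes passed, with a median of -0.08, and the renin gene Ren1 was too low to be tested. The receptor gene Agtr1a was at 13.1 to 15.8 CPM in wild-type fat and 9.01 to 11.7 CPM with Fabp4-Ebf2, without overlap (log2 fold change -0.46, standard error 0.12, adjusted p = 0.0739 by edgeR). Enpep, an aminopeptidase that degrades angiotensin, had a log2 fold change of 0.42 (standard error 0.14, adjusted p = 0.157 by edgeR).

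Beside Nampt, 1 of 13 tested genes of NAD synthesis and use rose, and 0 fell, with a median of 0.11. Sirt3, which encodes an NAD-dependent deacetylase of mitochondria, went from 22.1 ± 3.14 to 41.8 ± 10.5 CPM (log2 fold change 0.92, standard error 0.18, adjusted p = 0.0259 by edgeR). The call was lost on omitting replicate 1, 3 or 4 of wild type, or replicate 1 or 4 of Fabp4-Ebf2 (up to 0.0737). Naprt1, of NAD synthesis from nicotinic acid, had 0.46 (standard error 0.11, adjusted p = 0.0514 by edgeR), and Nnmt, which methylates nicotinamide, had -0.59 (standard error 0.15, adjusted p = 0.0739 by edgeR), both without overlap between the groups.

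Among 14 tested genes of retinoid handling, which surround Rbp4, 0 passed and the median was -0.21. The retinoic acid synthesis gene Aldh1a2 had -0.71 (standard error 0.17, adjusted p = 0.0578 by edgeR) and the retinoic acid receptor gene Rarb 0.99 (standard error 0.26, adjusted p = 0.0739 by edgeR), each without overlap. In the Wnt list around Sfrp5, 0 of 20 passed, with a median of -0.12. The related inhibitor gene Sfrp2 was at 44.9 ± 18.5 CPM in wild-type fat and 19.7 ± 5.23 CPM with Fabp4-Ebf2 (log2 fold change -1.18, standard error 0.30, adjusted p = 0.0660 by edgeR), and the Sfrp5 partner Wnt5a had -0.25. Around apelin, 0 of 8 vessel genes passed, with a median of -0.28.

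Other factors secreted by fat included 2 of 21 tested genes that rose and 0 that fell, with a median of -0.19. Angptl4, an inhibitor of lipoprotein lipase, rose from 307 ± 21.6 to 611 ± 180 CPM (log2 fold change 0.99, standard error 0.21, adjusted p = 0.0336 by edgeR), and kept its call without Fabp4-Ebf2 replicate 2 alone among the single omissions (edgeR adjusted p up to 0.107). Bmp8b, a BMP ligand of thermogenic fat, had 2, 2, 1 and 0 reads in wild type and 31, 16, 34 and 21 reads in Fabp4-Ebf2, and passed (edgeR adjusted p = 0.00919). It cleared the low-count filter only through the Fabp4-Ebf2 libraries, where it was high. Its call is therefore not independent of that filter. Angptl8, listed as Gm6484, had 1.06 (standard error 0.26, adjusted p = 0.0588 by edgeR), and Igf1 had -0.64 (standard error 0.16, adjusted p = 0.0613 by edgeR), each without overlap. By the authors' FDR, further partner genes named above as not passing were under 0.05. Besides Retnla and Retnlg, lower ones were Sfrp2 (6.00e-05), Igf1 (0.00470) and Nnmt (0.00879), where 1.71% of tested genes were called lower. Higher ones were Angptl8 (0.000364), Rarb (0.0112), Ccrl2 (0.0117) and C3ar1 (0.0314), and the matching upward share was not computed.

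**Figure D4:**
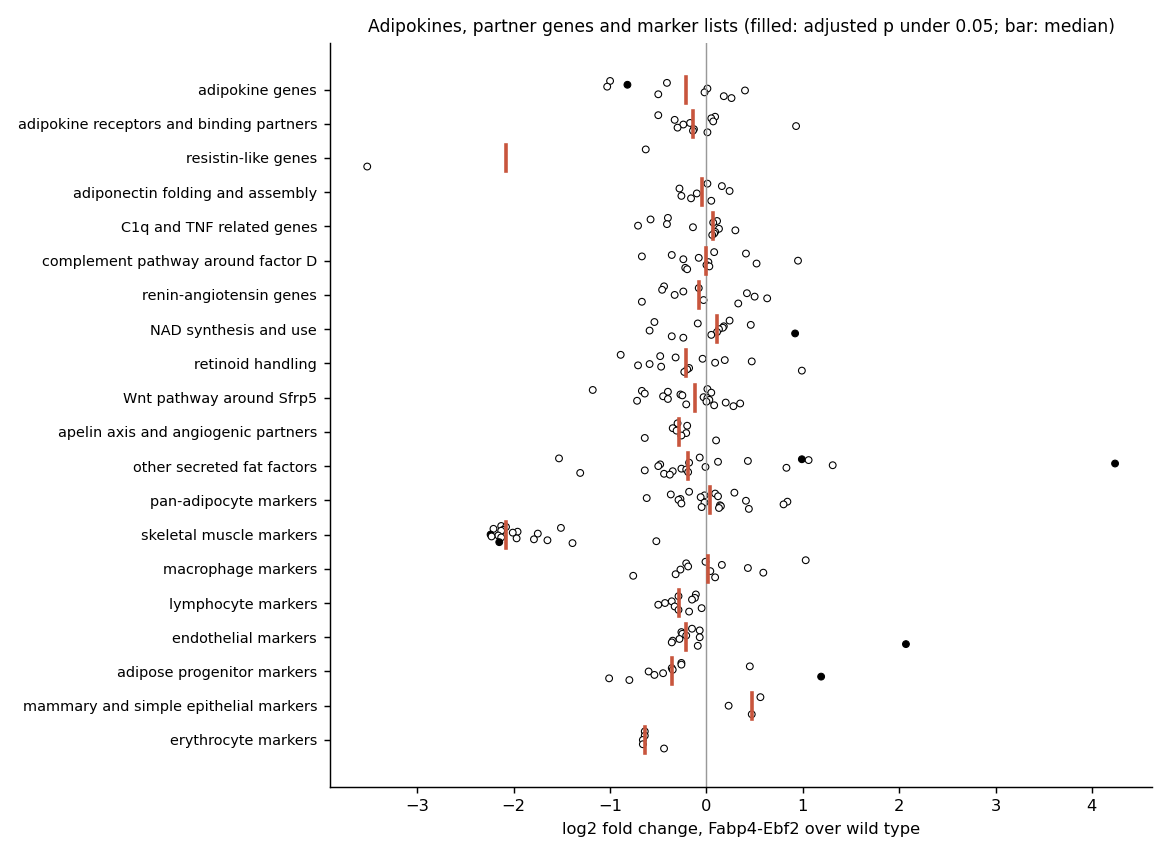
Log2 fold change of each tested gene in the adipokine list, the lists of partner genes and the lists of cell type markers; each circle is a gene, filled where the adjusted p is under 0.05, and the vertical bar is the list median. The partner medians lie between -0.28 and 0.11 except for the pair of resistin-like genes, and skeletal muscle markers lie lowest among the marker lists at a median of -2.08; the position of Bmp8b, at 0 to 2 reads in wild type, depends on the prior count of the fit.

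Progenitor markers summed to 6420 to 15500 CPM in wild-type fat and 4927 to 7289 CPM with Fabp4-Ebf2, and erythrocyte markers to 221 to 400 and 116 to 243 CPM. The progenitor sum was mostly the collagen genes Col3a1 (means 4493 and 2589 CPM) and Col1a1 (1753 and 869 CPM). Of the 11 progenitor markers 9 had lower means, and Pdgfrb had a log2 fold change of -0.26 and Ly6a 0.45. Of the markers of other cells, the lists of lymphocytes (median log2 fold change -0.29), endothelium (-0.21), progenitors (-0.36) and erythrocytes (-0.64) had lower medians, and epithelial markers were at 5.59 to 14.4 CPM summed in wild type and 5.26 to 30.9 CPM with Fabp4-Ebf2. Single members that passed were Lyve1 of the endothelial list and Dlk1 of the progenitor list, both higher. Lyve1 kept its call in 8 of 8 fits that left out 1 library. Dlk1, at 18 to 69 reads, kept its call in 2 of 8 (edgeR adjusted p up to 0.107). The part of these other cells in the adipokine values was not tested.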

How the data were processed

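The deposited table holds read counts per RefSeq transcript, as the authors deposited them; the submitters' processing notes name mm9 and edgeR without giving their roles. Which aligner and counter were run, and whether strand was used, is not given in the sources used here. The authors' log2 fold change and FDR, an adjusted p-value, come from columns marked as edgeR output per the file headers. A second set of 8 deposited columns, in log2 units, was not used. Each gene was represented by the transcript marked best (21967 genes) or else that with most reads (902 genes, Agt and Apln among them).

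The test was a quasi-likelihood fit (edgeR 4.0.16, R 4.3.3) with TMM factors of 0.941 to 1.07, filterByExpr (15002 genes), glmQLFit and glmQLFTest on genotype, at an adjusted p of 0.05; the standard error is the log2 fold change over the square root of F, and 95% intervals use the t quantile at the fit's degrees of freedom. The biological coefficient of variation was 18.7%, and 3 reads correspond to 0.122 to 0.178 CPM. RPKM values used transcript lengths from GENCODE M21 (GRCm38). Alternatives used DESeq2 1.42.0 and limma 3.58.1, other factors, filters and transcript choices, a block on replicate number, and each library left out. The procedure was tested on simulated data, and figures were drawn with matplotlib 3.10.9. Members and lists were chosen with earlier results of these data known. Named genes were the 10 members, Ebf2, up to 4 genes of smallest p per list with a call and up to 2 per other list, and the nearest profiles. Receptors, Erp44, C3, Wnt5a, Retnlb, Ren1, Lyz2, Col1a1 and Col3a1 were named after their values were seen.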

Additional observations from a re-analysis of the deposited data

Results flagged for a closer look

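In 2 of the 20 groups of 4 libraries examined, 1 library lay far from the other 3, by Dixon's criterion on the gap to the nearest library over the group's range. Chance alone gives this in about 1 of 20 groups. For Rarres2, replicate 4 of wild type had 379 CPM while the others had 280 to 286 CPM, a gap of 0.935 of the range. For Nampt, replicate 2 of wild type had 104 CPM while the others had 170 to 172 CPM, a gap of 0.980. Without wild-type replicate 2 the log2 fold change of Nampt was 0.25 in place of 0.40.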

How the results depend on the processing

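Over 21 alternatives Lep, Adipoq, Retn, Cfd and Agt had lower means and Nampt and Apln higher means throughout. The number of the 10 genes called was 1, and became 2 with upper-quartile factors, library totals only, a filter of 1 CPM in 4 samples, limma-voom, edgeR's exact test or summed transcripts (Retn and Cfd each time), 3 with DESeq2 (also Lep) or without both wild-type replicate 1 and Fabp4-Ebf2 replicate 2 (also Agt, an omission chosen after seeing the data), 0 with adipocyte-marker scaling, and 0 to 2 with single libraries left out. Over all genes 513 were called, and 190 with adipocyte-marker scaling, 1233 with DESeq2 and 1003 with the exact test. With single libraries left out the number ran from 116 (wild-type replicate 3) to 918 (Fabp4-Ebf2 replicate 2). It was 677 without wild-type replicate 1 and Fabp4-Ebf2 replicate 2 together. Small differences changed sign. Rarres2 was at -0.04 with upper-quartile factors, -0.05 with library totals, -0.13 with adipocyte-marker scaling, limma-voom or the replicate block, and -0.16 to 0.28 with single libraries left out. Rbp4 was at 0.05 when wild-type replicate 4 or else Fabp4-Ebf2 replicate 2 was omitted and 0.03 without wild-type replicate 1 and Fabp4-Ebf2 replicate 2 together, and Sfrp5 at -0.09 to 0.43 with single libraries left out. The causes were not tested.

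Replicate numbers are shared between the genotypes, but the deviations of same-numbered libraries correlated at -0.116, 0.366, 0.193 and 0.0749 across genes, so the numbers are not taken to pair the samples, and 2 of 8 libraries correlated best with their own number. With the replicate block 598 genes and 2 of the 10 genes were called, Cfd and Lep (edgeR adjusted p = 0.0479 and 0.0166) and not Retn (0.0600). No alternative varied depth. Apln, at 103 to 294 reads per library, had the same standard error, 0.33, as Lep.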
